A study of Mus musculus with 16 samples.

Results

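The MITF/TFE transcription factors (Mitf, Tfeb, Tfe3 and Tfec) and 6 genes of pigment cells (Mlana, Gpnmb, Pmel, Tyr, Tyrp1 and Dct) were followed in primary podocytes with and without Tsc2. The 10 genes were found through the accession that each array probe carries, which gave 18 probes of the 56605 on the array, for 10 of 22911 matched genes. They were chosen by their family and by values measured in these arrays: the untreated genotype difference, in which Mlana was among the largest rises, was known when the genes were picked. For these genes the untreated difference, treated minus untreated within a genotype and the change of the genotype difference are therefore a description with no test. The genotype difference after rapamycin was tested. The means of that comparison come from the treated arrays, while its spread was estimated over all 16, and earlier results of these data were known for it as well.

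The arrays held RNA of podocytes that grew out of isolated glomeruli in culture. Tsc2Δpodocyte mice carried a Cre transgene that acts in podocytes, with Tsc2 floxed on both alleles, and Tsc2flox/flox mice were littermates with the floxed alleles and no Cre, all males on an ICR background. Untreated mice were 4 weeks old and rapamycin-treated mice 5 weeks old after 1 week of the drug, which gave 4 groups of 4 arrays. Each group is named by genotype and treatment below, deleted for Tsc2Δpodocyte and control for Tsc2flox/flox. The sources used here do not state that a group's 4 samples are 4 mice. A p-value here therefore only sets a difference of means against the spread of samples within groups, part of which may be technical. The untreated groups lay on 1 slide and the treated groups on another, so that rapamycin, age and slide cannot be told apart. The deleted samples filled row 1 and the controls row 2 of both slides, so that genotype and row cannot be told apart.

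The MITF/TFE factors are basic helix-loop-helix leucine zipper proteins that bind E-box DNA as dimers. In cells with nutrients, active mTORC1 at the lysosome keeps TFEB and TFE3 in the cytoplasm by phosphorylation. When freed they switch on the CLEAR network of lysosomal and autophagy genes, and RagC and RagD, regulated by FLCN, bring them to mTORC1. MITF is the master regulator of melanocytes, where it drives the genes of pigment synthesis. TSC2 is part of the complex that restrains mTORC1. These arrays measured RNA and hold nothing on the place or phosphorylation of the proteins.

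The stretches before the start sites of Tyr, Tyrp1 and Dct, the enzymes of melanin synthesis, hold the M-box by which MITF is known to bind them, and are shown because these are textbook MITF targets whose RNA stayed near background or did not pass the test here. Gpnmb, which was measured well above background on all 16 arrays, is shown beside them without that motif. The capitals mark the 10 letters GTCATGTGCT, the longest run around the core CATGTG that the Tyr, Tyrp1 and Dct stretches share, and the sequences are the 250 bases before the RefSeq start site, 5′ to 3′, in build GRCm38.p6.
Tyr (chr7:87493513-87493762, minus strand): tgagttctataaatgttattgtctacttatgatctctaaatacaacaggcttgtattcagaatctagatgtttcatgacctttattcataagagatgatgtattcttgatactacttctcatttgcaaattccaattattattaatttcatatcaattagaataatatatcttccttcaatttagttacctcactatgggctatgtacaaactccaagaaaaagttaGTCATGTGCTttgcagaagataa
Tyrp1 (chr4:80833963-80834212, plus strand): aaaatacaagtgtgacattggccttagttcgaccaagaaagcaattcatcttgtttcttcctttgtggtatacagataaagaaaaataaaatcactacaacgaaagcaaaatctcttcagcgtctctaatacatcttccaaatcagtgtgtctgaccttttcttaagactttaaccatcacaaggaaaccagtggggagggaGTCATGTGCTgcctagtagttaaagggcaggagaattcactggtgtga
Dct (chr14:118052247-118052496, minus strand): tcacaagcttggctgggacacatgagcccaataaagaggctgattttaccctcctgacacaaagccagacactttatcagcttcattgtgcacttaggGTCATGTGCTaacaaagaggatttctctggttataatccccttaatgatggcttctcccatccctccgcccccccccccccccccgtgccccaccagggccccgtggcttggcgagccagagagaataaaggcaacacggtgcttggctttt
Gpnmb (chr6:49036268-49036517, plus strand): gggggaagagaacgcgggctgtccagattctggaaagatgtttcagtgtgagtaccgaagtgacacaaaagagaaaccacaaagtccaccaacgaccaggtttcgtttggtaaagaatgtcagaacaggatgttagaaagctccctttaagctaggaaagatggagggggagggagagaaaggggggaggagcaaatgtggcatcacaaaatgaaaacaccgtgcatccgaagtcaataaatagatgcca

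The run was found by comparing the 3 sequences and was then looked for on both strands of the same stretch of 32851 RefSeq promoters, of which 51 (0.155%) held it. It ends 14 bases before the start site of Tyr, 39 before that of Tyrp1 and 143 before that of Dct. Dct held a further core on the other strand, from 232 to 227 bases before its start. The core CATGTG alone was in 12.3% of all promoters, the E-box CACGTG in 6.02% and the longer TCACGTGA, which contains that E-box, in 0.785%. None of the 3 was in the stretch shown for Gpnmb, before the single start of Tfec, or before the 3 starts of Mitf, the 3 of Tfeb and the 2 of Tfe3. These matches are letters in a window and say nothing of binding. The table held no entry for Mlana or Pmel.

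Signals are given as log2 of the background-subtracted intensity minus log2 of the 75th percentile of the array, so that 0 is that percentile, and levels of different probes are not compared. The share of all tested probes whose groups do not overlap was not counted, so a lack of overlap is only a description of the probe named. The lowest signal that still counted as well above background lay between -5.77 and -4.45 on the 16 arrays. Of the 18 probes, 12 had a group with all 4 arrays well above background and entered the fit. They were all 3 of Mitf, 3 of 4 of Tfeb, 1 of 2 of Tfe3, 1 of 2 of Dct and the single probes of Tfec, Mlana, Gpnmb and Pmel, while no probe of Tyr or Tyrp1 entered. Between 26082 and 30283 probes were well above background on an array, and arrays of the same group correlated at 0.9785 to 0.9923 across probes. Tsc2 itself was lower in the deleted samples on both of its probes, by 1.35 ± 0.22 and 1.43 ± 0.25 (log2, SE, n = 4 a group) untreated and by 0.99 ± 0.22 and 1.27 ± 0.25 after rapamycin (limma, adjusted p = 0.0124 and 0.00794), and where these probes lie relative to the deleted exons is not known. The 12 podocyte markers were well above background on every array but for 1 marker in the untreated deleted group.

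**Figure D1:**
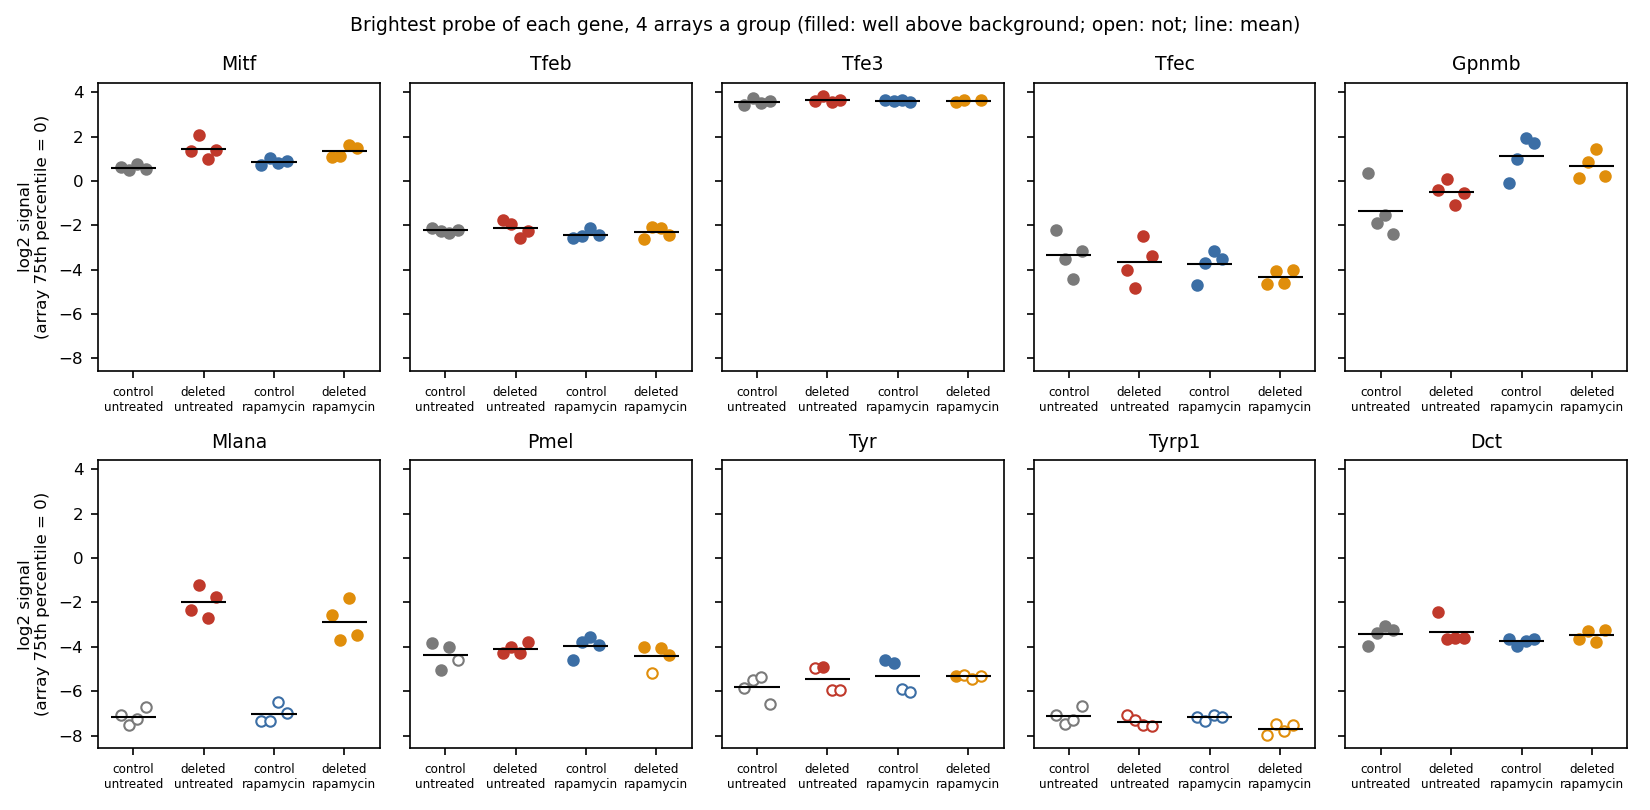
Log2 signal of the brightest probe of each of the 10 genes on every array (y axis, 0 is the 75th percentile of the array) in the 4 groups (x axis); filled points were well above background, open points were not, and lines are group means. Mlana was well above background on the 8 deleted arrays and on none of the 8 control arrays, and Tfe3 lacks 1 deleted rapamycin array whose spot was marked as an outlier.

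Mlana, which encodes the melanosome protein MART-1, had the largest difference of the 12 tested probes. In the untreated deleted samples its probe read -2.34, -1.23, -2.69 and -1.75, and in the untreated controls -7.08, -7.53, -7.24 and -6.74. After rapamycin it read -2.55, -3.71, -1.79 and -3.45 in the deleted samples against -7.33, -7.33, -6.49 and -6.97 in the controls. The groups did not overlap in either comparison, and all 8 control values were not well above background. The control level is therefore not known, and the lowest signal well above background on each array stood in for it. That is no strict limit, as a signal not flagged can read higher. Tfeb probe 3 read -4.73 without the flag in untreated deleted replicate 1, where the lowest flagged signal was -4.996. Against that stand-in Mlana was 7.85-fold higher in the untreated deleted samples, which is a description. After rapamycin it was 4.77-fold higher, with measured means of -2.88 and -7.03 (n = 4 a group; limma, adjusted p = 0.000228). Mlana entered the fit only through the groups in which it was high, so this p sets the deleted samples against control values at background and gives no size. With normexp background correction, which lifts dim signals, the measured difference was 0.98 in place of 4.15. The fold therefore depends on how the background is treated.

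Within the deleted samples Mlana was 0.88 ± 0.39 lower after rapamycin than before, with overlapping values. The genotype difference was 0.99 ± 0.56 smaller after rapamycin, which is a description and rests on control values at background.

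Defining genes of melanocytes lay at background. Of 10 markers of that lineage, Sox10, Erbb3 and Mc1r were not well above background on any array. Ednrb, the endothelin receptor of melanoblasts and of other cells, was well above background on the 4 untreated deleted arrays (-4.14, -3.54, -4.06 and -3.99) and on none of the 4 untreated control arrays (-5.44, -6.45, -6.13 and -4.65). After rapamycin it differed by 0.67 ± 0.33 (limma, adjusted p = 0.224) and was above background on all 4 deleted and on 2 control arrays. Of the 4 lineage markers tested, 1 was called higher untreated, which was Ednrb against control values at background, and none was lower. After rapamycin none passed in limma in either direction, nor at an unadjusted p below 0.05. Beside these, 10.3% of all 14094 genes, by their brightest tested probe, were higher and 9.2% lower untreated, and 6.2% and 4.97% after rapamycin. Below the unadjusted 0.05 were 3848 of the 14094 after rapamycin, in either direction. With 4 markers tested, nothing is read from these counts. The summed signal of the 10 markers, with the 75th percentile of the array as 1, ran from 0.385 to 0.508 in the untreated deleted and from 0.365 to 0.491 in the untreated control samples. After rapamycin it ran from 0.405 to 0.788 and from 0.448 to 0.738. In such cultures a change in the number of cells of a type and a change of RNA per cell cannot be told apart.

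Mitf was higher in the deleted samples on all 3 of its probes. On probe 1, its brightest (A_55_P2176838), the untreated deleted samples read 1.36, 2.06, 0.98 and 1.37 and the untreated controls 0.61, 0.47, 0.78 and 0.53. On probe 2 (A_55_P2152437) they read -0.94, -0.15, -0.99 and -0.86 against -1.53, -1.58, -1.42 and -1.55. On probe 3 (A_51_P364274) they read -1.72, -0.90, -1.84 and -1.52 against -2.09, -2.39, -2.20 and -2.18. Every untreated deleted sample lay above every untreated control on each probe, and how common this is among all probes was not counted. The differences were 0.84 ± 0.19, 0.79 ± 0.16 and 0.72 ± 0.18 (log2, SE), folds of 1.79, 1.72 and 1.65, given as a description.

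After rapamycin the difference of Mitf was in the same direction on the 3 probes. On probe 1 the deleted samples read 1.10, 1.13, 1.64 and 1.46 and the controls 0.71, 1.05, 0.81 and 0.92. On probe 2 they read -0.87, -0.61, -0.47 and -0.71 against -1.25, -1.02, -1.48 and -1.11. On probe 3 they read -1.62, -1.30, -1.54 and -1.79 against -1.91, -1.80, -2.31 and -1.75. The groups did not overlap on probes 1 and 2 and overlapped on probe 3. Only probe 2 passed, with a difference of 0.55 ± 0.16 (limma, adjusted p = 0.0453; 95% interval 0.20 to 0.90), a fold of 1.47. Probe 1 differed by 0.46 ± 0.19 (adjusted p = 0.136, interval 0.05 to 0.86) and probe 3 by 0.38 ± 0.18 (adjusted p = 0.212, interval -0.02 to 0.77). The 3 probes measure the same samples and are not independent, and which Mitf starts or exons they read is not known.

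The call of Mitf probe 2 lay close to the threshold. With single arrays left out it held without untreated deleted replicate 2 or 3 or treated control replicate 2 and was lost with any of the other 13 arrays left out, with adjusted p from 0.00726 to 0.136 and differences from 0.46 to 0.62. It was lost as well with normexp (adjusted p = 0.111), with no filter on dim probes (0.117), with the methods' t-test (0.0762) and where a fold of at least 1.5 was asked for. Probe 1 passed (adjusted p = 0.047) without untreated deleted replicate 2, the sample with the highest untreated Mitf on all 3 probes.

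Treated minus untreated, Mitf differed by -0.11 ± 0.19, 0.07 ± 0.16 and -0.07 ± 0.18 in the deleted samples on probes 1, 2 and 3. In the control samples it differed by 0.28 ± 0.19, 0.31 ± 0.16 and 0.27 ± 0.18, with overlapping values in both genotypes. These values are a description in which slide and age go with the drug. The genotype difference was 0.39 ± 0.27, 0.23 ± 0.23 and 0.34 ± 0.26 smaller after rapamycin.

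**Figure D2:**
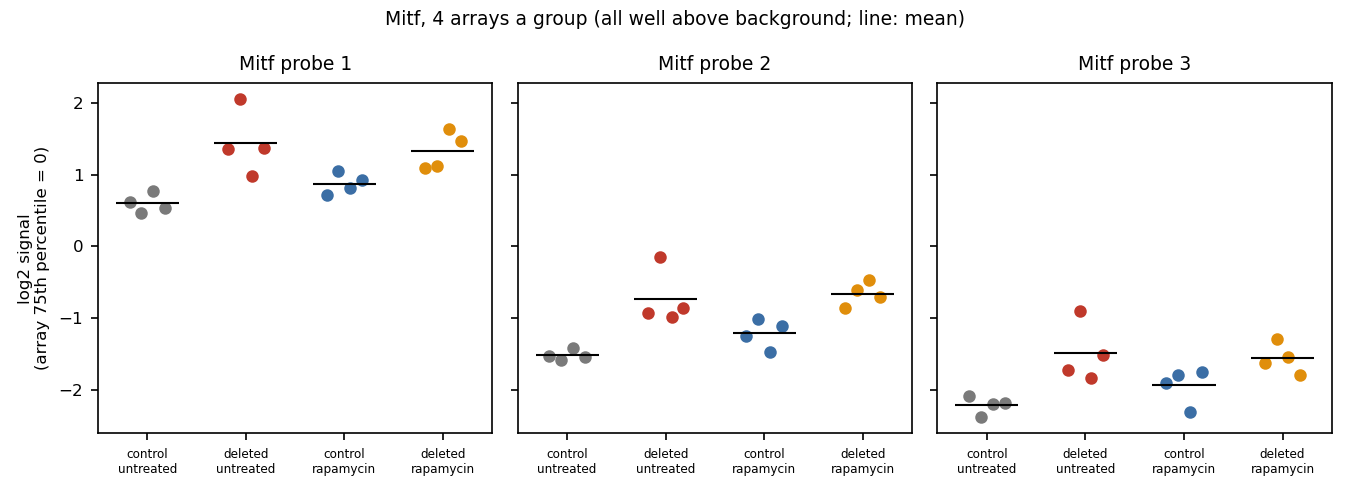
Log2 signal of the 3 Mitf probes (y axis, 0 is the 75th percentile of the array) on the 4 arrays of each group (x axis), with group means as lines. The untreated deleted samples lie above the untreated controls on each probe, and after rapamycin the groups are apart on probes 1 and 2 and overlap on probe 3.

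Tfeb, Tfe3 and Tfec, the other factors of the family, did not pass the test after rapamycin. Tfe3 probe 1 (A_55_P2811589) varied little between samples. It read 3.62, 3.82, 3.55 and 3.65 in the untreated deleted and 3.44, 3.74, 3.53 and 3.58 in the untreated control samples, then 3.56, 3.65 and 3.63 in the 3 measured treated deleted and 3.64, 3.62, 3.64 and 3.55 in the treated control samples. The untreated difference was 0.09 ± 0.08. After rapamycin it was 0.0033 ± 0.0898 with treated deleted replicate 3 dropped as an outlier spot (adjusted p = 0.987), with a 95% interval from -0.19 to 0.20. Tfe3 probe 2 was not well above background on any array.

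Tfeb probe 1 (A_55_P2740042) read -1.76, -1.95, -2.58 and -2.24 in the untreated deleted and -2.11, -2.24, -2.36 and -2.20 in the untreated control samples. After rapamycin the values were -2.63, -2.07, -2.13 and -2.45 against -2.59, -2.50, -2.13 and -2.45. The groups overlapped both times, and the treated difference was 0.10 ± 0.17 (adjusted p = 0.764, interval -0.27 to 0.47). Probe 2 (A_55_P1997898) differed by -0.0043 ± 0.1601 (adjusted p = 0.99) and probe 4 (A_66_P126230) by -0.39 ± 0.27 (adjusted p = 0.387) after rapamycin. Probe 4, with 1 to 4 of 4 arrays of a group above background, differed by 0.41 ± 0.27 the other way in the untreated samples. Probe 3 (A_51_P370082) was not tested. In the untreated deleted samples it read -4.73, -4.93, -4.95 and -4.83, 2 of them well above background, and in the untreated controls -5.26, -5.22, -5.20 and -5.07, none above background.

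Tfec, the member of the family best known from macrophages, varied widely within groups. Its probe read -4.01, -4.84, -2.47 and -3.38 in the untreated deleted and -2.23, -3.50, -4.44 and -3.16 in the untreated control samples. After rapamycin it read -4.64, -4.08, -4.59 and -4.03 against -4.68, -3.69, -3.18 and -3.53. Untreated deleted replicate 3 and untreated control replicate 1 were the highest of the 16. The treated difference was -0.56 ± 0.50 (adjusted p = 0.518, interval -1.63 to 0.51) and the untreated -0.34 ± 0.50.

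The same samples led the 8 endothelial markers. Their summed signal was 88.7 in untreated deleted replicate 3 and 109 in untreated control replicate 1, from 7.85 to 48 in the other 6 untreated samples and from 5.05 to 13.1 in the 8 treated ones. Over the 16 arrays the genes closest to Tfec were Entpd1, Cavin2 and Arhgdib (Pearson r of 0.905, 0.889 and 0.887), and for deviations from the group means Inpp5d, Hcls1 and D730003K21Rik (0.952, 0.934 and 0.932). These correlations describe 16 arrays in 4 groups. The summed signal of 15 macrophage markers was 14 in untreated deleted replicate 3, the lowest of its group. It was 19.9 in untreated control replicate 1, the highest of its group. What part endothelial or macrophage RNA has in the Tfec values was not tested.

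Gpnmb, a glycoprotein of melanosomes that macrophages and osteoclasts also make and a known target of MITF and TFE3, had higher means after rapamycin in both genotypes. The untreated deleted samples read -0.41, 0.07, -1.10 and -0.56 and the untreated controls 0.36, -1.90, -1.53 and -2.39. After rapamycin the deleted samples read 0.15, 0.87, 1.45 and 0.22 and the controls -0.08, 0.97, 1.92 and 1.70. All treated deleted values lay above all untreated deleted ones, while in the controls untreated replicate 1 lay within the treated range. Treated minus untreated was 1.17 ± 0.55 in the deleted and 2.49 ± 0.55 in the control samples, given as a description in which slide and age go with the drug.

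The genotypes overlapped for Gpnmb in both treatments. The deleted samples were 0.86 ± 0.55 above the controls untreated and 0.46 ± 0.55 below them after rapamycin (limma, adjusted p = 0.652, interval -1.64 to 0.72), a change of -1.32 ± 0.78. The summed signal of 15 macrophage markers ran from 14 to 22.7 in the untreated deleted, 9.6 to 19.9 in the untreated control, 13.9 to 21.6 in the treated deleted and 13 to 21.3 in the treated control samples. The sample with the highest Gpnmb had the highest macrophage sum in the untreated controls (replicate 1, 19.9) and not in the other groups, where it had 15.2 against 22.7 in the untreated deleted, 14.7 against 21.6 in the treated deleted and 20.8 against 21.3 in the treated control samples. Of the 14 macrophage markers tested, 1 was higher untreated (Cd68) and none passed in limma after rapamycin. At an unadjusted p below 0.05, 5 were higher and 1 lower untreated and 1 was lower after rapamycin. Among all 14094 genes by their brightest tested probe, 4842 untreated and 3848 after rapamycin were below it in either direction. The medians of the list were 0.98 and -0.06. The lower marker was Itgam both times, by 0.52 ± 0.17 untreated and 0.55 ± 0.17 after rapamycin. Its mean signal was the highest of the list in all 4 groups. It therefore weighs most in the summed signal, which need not follow the other markers. In the list Cd163 was well above background on no array of 3 of the 4 groups. The genes closest to Gpnmb were Ccl9, Anpep and Rgs1 (r of 0.963, 0.942 and 0.939 over 16 arrays), and for deviations from the group means Trem2, Ccl9 and Ypel2 (0.942, 0.930 and 0.911). Trem2 is among the macrophage markers. What part macrophage RNA has in the Gpnmb values was not tested.

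**Figure D3:**
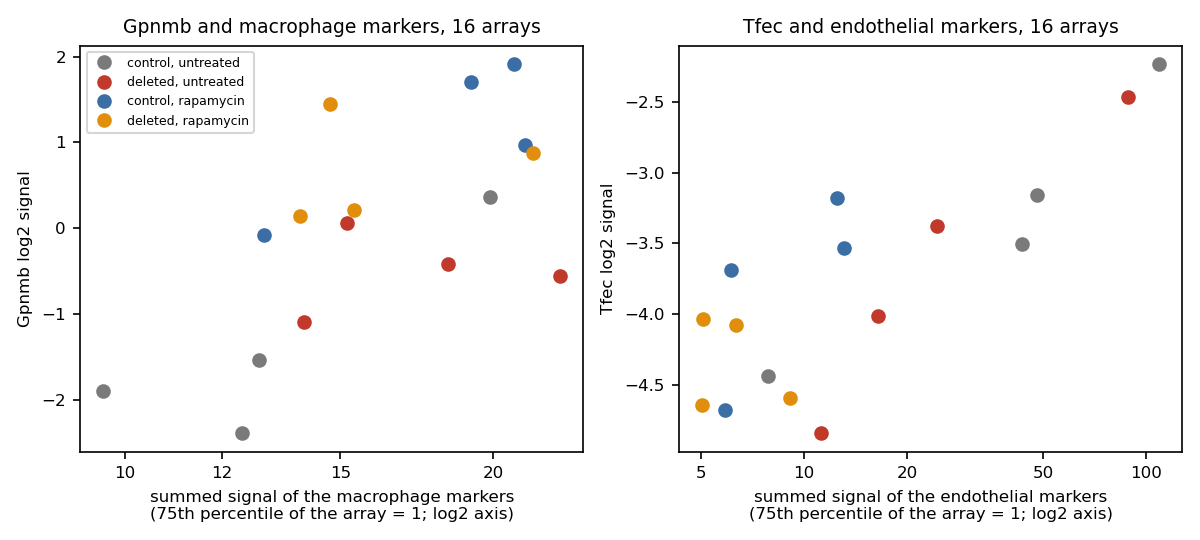
Gpnmb log2 signal against the summed signal of 15 macrophage markers (left) and Tfec log2 signal against that of 8 endothelial markers (right) on each of the 16 arrays, coloured by group, with log2 x axes on which the 75th percentile of the array is 1. The highest Tfec values belong to the untreated samples whose endothelial sums are 109 and 88.7.

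Pmel, the protein of the fibrils on which melanin is laid down, was dim and overlapped between genotypes. It read -4.27, -4.02, -4.27 and -3.77 in the untreated deleted samples against -3.85, -5.02, -4.02 and -4.60, and -4.01, -5.18, -4.07 and -4.36 in the treated deleted samples against -4.61, -3.77, -3.55 and -3.94. The treated difference was -0.44 ± 0.30 (adjusted p = 0.389, interval -1.09 to 0.21) and the untreated 0.29 ± 0.30.

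The enzymes of melanin synthesis showed no such rise as Mlana. Tyr, tyrosinase, was well above background on 4 of 16 arrays on its probe 1 (A_66_P135323), which were 1 untreated deleted, 1 treated deleted and 2 treated control arrays, with values from -6.57 to -4.58 over all 16. Its other probe and the probe of Tyrp1 were not well above background on any array. Tyrp1 read between -7.99 and -7.52 in the treated deleted and between -7.37 and -7.05 in the treated control samples, all of it at background. Dct, dopachrome tautomerase, was above background on all arrays on probe 1 (A_66_P128036) and on none on probe 2 (A_55_P1961466), so the Dct probes disagree. Probe 1 read -2.44, -3.64, -3.61 and -3.58 in the untreated deleted and -3.98, -3.36, -3.08 and -3.26 in the untreated control samples. After rapamycin it read -3.65, -3.30, -3.77 and -3.23 against -3.64, -3.96, -3.74 and -3.64, a difference of 0.26 ± 0.25 (adjusted p = 0.574, interval -0.29 to 0.80). At these signals a small difference of Tyr or Tyrp1 could not be detected.

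Among all 27579 tested probes, 9.59% were higher and 8.42% lower in the untreated deleted samples, beside 4 and none of the 12 probes of the family, from which nothing is read because that comparison chose them. After rapamycin 5.7% were higher and 4.59% lower, beside 2 higher (Mlana and Mitf probe 2) and none lower. Nothing is read from that count either, as Mlana entered the fit only through the groups in which it was high. The call of Mitf probe 2 lay close to the threshold, and earlier results were known for this comparison as well. At an unadjusted p below 0.05 the comparison after rapamycin held 7224 of the 27579 tested probes in limma, in either direction. Of the 12 probes of the family it held Mlana and Mitf probes 1 and 2 as higher and none as lower. That share of the family is near the share of all probes. The methods' t-test added Tfeb probe 4 as lower.

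**Figure D4:**
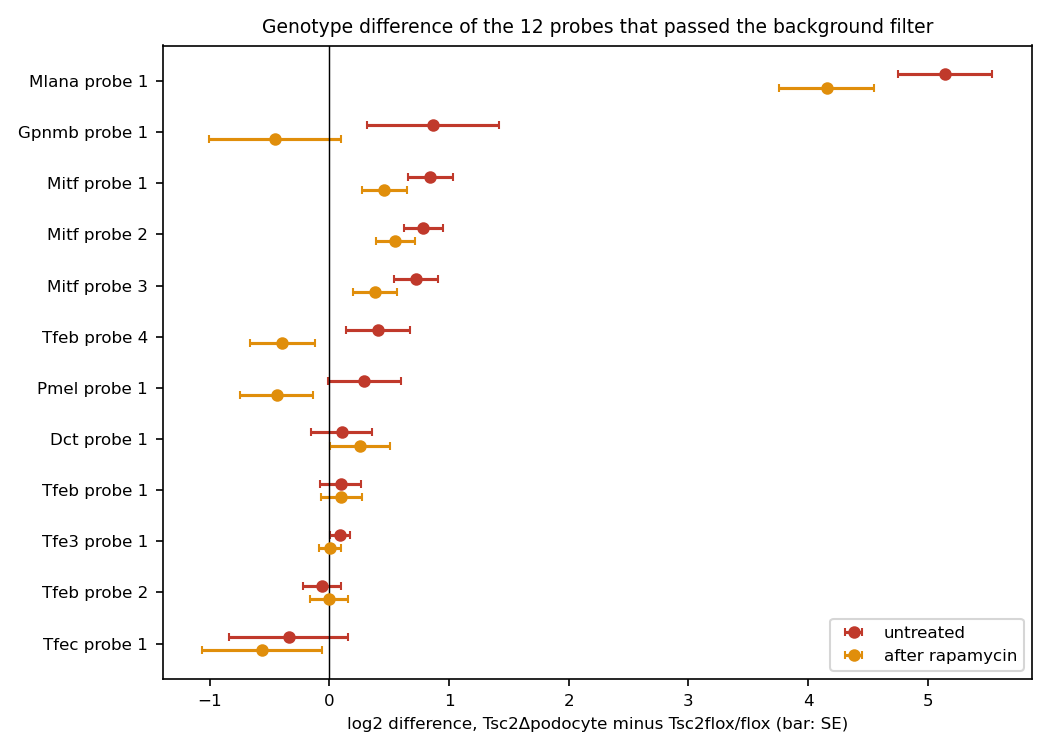
Log2 difference of Tsc2Δpodocyte minus Tsc2flox/flox samples (x axis, bars are the SE) for the 12 tested probes (y axis), untreated and after rapamycin, n = 4 a group. Mlana stands at 5.15 and 4.15 with controls at background, the 3 Mitf probes between 0.38 and 0.84, and Gpnmb at 0.86 and -0.46.

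The wider lists give the setting of these values, and they were chosen with earlier results of these data known. Genes named from a list were picked for their small p, so their p-values here and below are a description. By the brightest tested probe of each of 14094 genes, 10.3% were higher and 9.2% lower in the untreated deleted samples, and 6.2% and 4.97% after rapamycin, with medians of -0.01 and 0.01 (log2). Of 37 CLEAR network genes of lysosome and autophagy, all tested, 19 were higher and none lower untreated (median 0.50), and 8 were higher and none lower after rapamycin (median 0.33). Ctsb, the protease cathepsin B, was 1.06 ± 0.12 higher untreated and 0.57 ± 0.12 after rapamycin (adjusted p = 0.000105 and 0.0096). Neu1, a lysosomal sialidase, was 0.99 ± 0.14 and 0.95 ± 0.14 higher (0.000479 and 0.00227). Sqstm1, the autophagy receptor p62, was 1.11 ± 0.16 and 0.72 ± 0.16 higher (0.000447 and 0.0119), and Sgsh, a sulfatase of heparan breakdown, 0.70 ± 0.12 and 0.73 ± 0.12 higher (0.00196 and 0.00455). The treated count of the list was 5 with untreated deleted replicate 4, treated deleted replicate 3 or 4 or treated control replicate 1, 2 or 4 left out, and the untreated count lay between 15 and 23 over the 16 arrays left out in turn.

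Among 18 tested regulators of the factors, 3 were higher and 1 lower untreated, and 1 was higher and 1 lower after rapamycin (medians 0.21 and 0.07). Rragd, which encodes RagD and is itself a CLEAR gene, ran from 1.49 to 2.05 in the untreated deleted and from -0.83 to 0.02 in the untreated control samples. After rapamycin it read 1.66, 1.51, 1.94 and 1.61 against -0.27, 0.01, 0.70 and 1.18, with no overlap, and differed by 1.28 ± 0.28 (adjusted p = 0.0119). Rragc and Lamtor1, other parts of the mTORC1 anchor, were higher untreated by 0.43 ± 0.14 and 0.42 ± 0.13 (adjusted p = 0.0405 and 0.0431). Mapk3, the kinase ERK1, was lower by 0.44 ± 0.09 untreated and 0.40 ± 0.09 after rapamycin (adjusted p = 0.0053 and 0.0156).

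Of 11 tested MITF targets outside pigment synthesis, 3 were higher and none lower untreated, and 2 and none after rapamycin (medians -0.05 and 0.13). Ptgds, prostaglandin D2 synthase, read 1.18, 1.75, 1.31 and 0.88 in the untreated deleted and -4.31, -3.01, -4.05 and -2.94 in the untreated control samples, and 2.75, 1.45, 2.77 and 1.17 against -3.99, -2.21, -3.37 and -3.75 after rapamycin. It had the smallest p of this list in both comparisons, for which it was named, and was 4.85 ± 0.46 and 5.36 ± 0.46 higher (adjusted p = 5.77e-05 and 0.000143). Hif1a was 0.58 ± 0.12 and Ppargc1a 0.68 ± 0.20 higher untreated (adjusted p = 0.00601 and 0.0309), and Diaph1 0.33 ± 0.09 higher after rapamycin (adjusted p = 0.0426).

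Of 11 other pigment cell genes, 10 were on the array and 5 tested. Gpr143, the melanosome receptor of ocular albinism, was the only of the 5 to pass, untreated. It read -3.35, -2.51, -3.13 and -3.06 in the untreated deleted and -5.42, -5.34, -4.07 and -5.68 in the untreated control samples, with only 1 of the controls well above background, so that the call (adjusted p = 0.00347) rests mostly on control values at background. After rapamycin it read -3.31, -3.73, -2.31 and -3.60 against -5.20, -4.95, -3.85 and -3.82, with no overlap, and 1.21 ± 0.41 did not pass (adjusted p = 0.0749). No gene of this list passed in limma after rapamycin, and 1 passed the methods' t-test after adjustment. At an unadjusted p below 0.05 in limma, 2 were higher and 1 lower after rapamycin, beside 3848 of all 14094 genes in either direction. The medians of the list were 0.19 and 0.04.

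Of 18 tested melanosome trafficking genes that all cells use, 2 were higher untreated (Dtnbp1 and Lyst) and 1 after rapamycin (Bloc1s6), with none lower and medians of 0.23 and 0.08. Of 6 tested osteoclast genes, Itgb3, the β3 integrin, was lower by 1.16 ± 0.27 untreated and 1.07 ± 0.27 after rapamycin (adjusted p = 0.00956 and 0.0231), and no other passed (medians -0.03 and -0.68).

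**Figure D5:**
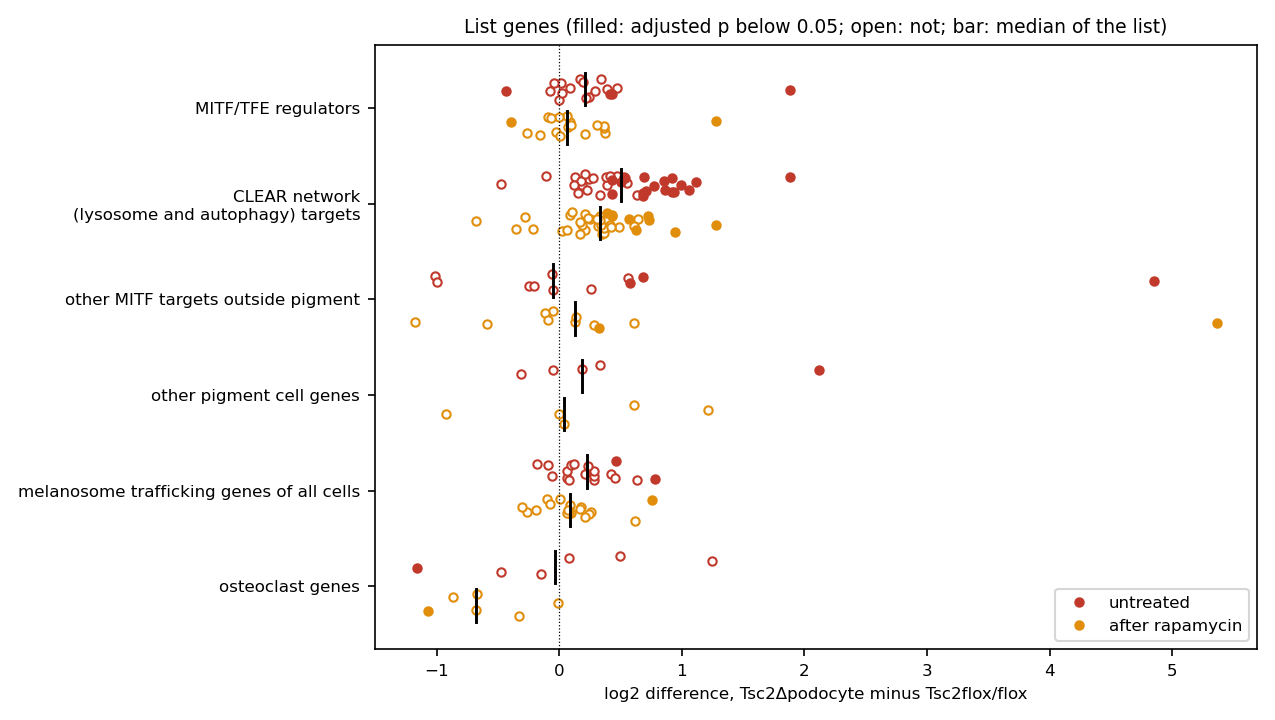
Log2 difference of Tsc2Δpodocyte minus Tsc2flox/flox samples (x axis) for each tested gene of 6 lists (y axis), untreated and after rapamycin; filled points had an adjusted p below 0.05 and black bars are list medians. The CLEAR network medians are 0.50 and 0.33, and the farthest point on the right is Ptgds at 4.85 and 5.36.

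Mlana was closest over the 16 arrays to 1810065E05Rik, Tmem114 and Prss46 (r of 0.983, 0.976 and 0.975), and in its deviations from the group means to Cebpzos, Atg10 and Gcm2 (0.916, 0.916 and 0.914). For Mitf probe 1 these were Tprgl, Rassf2 and Mrpl54 (0.940, 0.939 and 0.938) and, for deviations, Orai3, Magi2 and Tprgl (0.905, 0.904 and 0.899). Tfeb probe 1 had Sptbn4 closest (0.880), Tfe3 probe 1 Uxt (0.859), Pmel Cd53 (0.798) and Dct probe 1 Ikzf3 (0.755). Each correlation is over 16 arrays that share 4 groups and is a description with no test.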

How the data were processed

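Single-colour Agilent arrays of 16 podocyte samples were analysed, 4 in each of 4 groups set by genotype and treatment in the labels. The authors deposited a scanner file for each array, with linear, background-subtracted spot intensities from Agilent Feature Extraction 10.7.3.1, and a table of log2 values. By comparison with the scanner values that table is shifted by array and centred by probe (column medians from -0.16 to 0.24, r of at least 0.9996 with the values here), and it served as an alternative. Outlier spots were left out (1344), repeated spots averaged and none was saturated. Probes were named through RefSeq accessions: 32994 of 56605 matched. The 27579 probes with a group whose 4 arrays were all well above background were tested with limma 3.58.1 in R 4.3.3 on 4 group means, with Benjamini-Hochberg adjustment within a comparison and a threshold of 0.05 at any fold. The fit was tested on simulated data. No depth exists for arrays, and the number of arrays limits the precision.

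The genes and lists were chosen with earlier results of these data known. All probes of the 10 genes are named. Of each list, up to 4 genes with the smallest p in each comparison were eligible to be named, by the brightest tested probe. For likeness, the 3 other genes with the highest r were taken. The authors' own analysis asked for a fold of at least 1.5 as well, which was run as an alternative beside quantile normalization, normexp background correction with an offset of 50, no or a stricter background filter, the 8 arrays alone, a trended prior, the methods' t-test, a replicate block and each array left out. Scanner files gave median, not mean, signals for normexp.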

Additional observations from a re-analysis of the deposited data

Results flagged for a closer look

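In 51 sets of 4 arrays (a probe of the 10 genes in a group, with at least 1 array well above background), 2 had a sample far from the other 3, judged by the gap to its neighbour over the range of the set, and about 1 in 20 sets does so by chance. Dct probe 1 read -2.44 in untreated deleted replicate 1 and -3.64 to -3.58 in the others of its group (gap 0.952 of the range). Mitf probe 2 read -0.15 in untreated deleted replicate 2 and -0.99 to -0.86 in the others (gap 0.843 of the range).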

How the results depend on the processing

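After rapamycin 2 probes of the 10 genes passed, and 1 did with normexp, with no filter, with the stricter filter (which leaves Mlana out of the test), with the methods' t-test, with a fold of at least 1.5 as well, and, with single arrays left out, from 1 to 3. At an unadjusted 0.05 the t-test passed 4 after rapamycin. Untreated, where the comparison chose the genes and a count is a description, 4 were past the threshold, and 1 with the methods' t-test. The adjusted p of Mlana after rapamycin, against control values at background, ran from 0.000117 to 0.0223 over the settings that tested it. With normexp, whose offset raises dim signals, its differences were 1.51 untreated and 0.98 after rapamycin. The 13 genes of the 6 lists that passed after rapamycin became 6 with no filter, 8 with only the 8 arrays compared, 5 with the methods' t-test, 8 with the fold, and 7 to 18 with single arrays left out. The lowest counts (7 or 8) came without untreated deleted replicate 4, treated deleted replicates 1 and 4, or treated control replicates 1, 3 and 4. Treated Tfeb probe 2 (near 0) turned to 0.077 with quantile, 0.026 with normexp and 0.021 with the deposited values, and ran from -0.12 to 0.081 with arrays left out. Treated Tfe3 probe 1 (also near 0) turned to -0.055 with quantile, -0.17 with the deposited values and -0.011 with the replicate block, and ran from -0.018 to 0.031 with arrays left out. The causes of these changes were not tested.

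The replicate numbers do not pair the samples: same-numbered deviations correlated from -0.30 to -0.01 untreated and from -0.02 to 0.46 after rapamycin, and 0 of 8 and 3 of 8 samples were closest to their own number. With the replicate block 1 probe of the 10 genes passed after rapamycin, and Mitf probe 2 had an adjusted p of 0.0506.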
